A study of Mus musculus with 6 samples.

Results

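The 7 genes described here are those of coenzyme A (CoA) synthesis from pantothenate: the pantothenate kinase genes *Pank1*, *Pank2*, *Pank3* and *Pank4*, and *Ppcs*, *Ppcdc* and *Coasy*, which encode the later enzymes. They were taken by symbol from a table of 24532 genes, and all 7 were among the 13801 genes with enough counts to be tested. *Pank1* was selected because it was lower in the knockout-labelled libraries of this same comparison, so its values are a description and carry no test. The other 6 genes were selected by name, as the paralogs of *Pank1* and the remaining enzymes of the pathway.

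RNA of gastrocnemius (GAS) muscle was sequenced from 3 WT and 3 *Sirt6* KO animals, male C57BL/6 mice aged about 20 weeks, and each animal gave 1 library. WT animals carried floxed *Sirt6* alleles without Cre (Sirt6 flox/flox), and *Sirt6* KO animals carried the same alleles with *Myl1-Cre*, so both groups share the floxed gene and no treatment was given. *Myl1-Cre* uses a myosin light chain promoter that acts mainly in fast, type II fibers and from embryonic life onwards, and fibers without Cre and all other cells of the muscle keep their *Sirt6*. Sirt6 is an NAD-dependent deacylase of the nucleus, and the series asks how its loss in muscle changes gene expression.

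CoA carries acyl groups: fatty acids are activated to acyl-CoA before oxidation, and acetyl-CoA enters the tricarboxylic acid cycle. Pantothenate kinase (PANK) phosphorylates pantothenate, vitamin B5, which is the first and rate-limiting step of CoA synthesis. PPCS then adds cysteine, PPCDC removes its carboxyl group to give 4′-phosphopantetheine, and COASY adds the adenylyl group and the last phosphate. PANK1, PANK2 and PANK3 are active kinases under feedback control by CoA thioesters, whereas PANK4 has lost kinase activity. In mouse, *Pank1*, *Pank2* and *Pank3* each hold a microRNA gene of the mmu-miR-103-3p and mmu-miR-107-3p family in an intron.

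The host genes and their microRNAs are shown first because the family shares 1 seed, the bases that pair with target transcripts. *Mir107* lies in *Pank1* on chr19:34820700-34820722 (minus strand), *Mir103-2* in *Pank2* on chr2:131288103-131288125 (plus strand) and *Mir103-1* in *Pank3* on chr11:35782447-35782469 (plus strand); these are the positions of the 3p arms in RefSeq on GRCm38.p6, and all 3 microRNA genes were matched by symbol. In the mature 3p sequences, written 5′ to 3′, capitals mark the seed, bases 2 to 8:
mmu-miR-107-3p: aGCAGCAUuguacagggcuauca
mmu-miR-103-3p: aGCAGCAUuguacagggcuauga
Each is 23 bases long. They differ at 1 base, C22G, counted from 1 at the 5′ end with the base of mmu-miR-107-3p first. *Mir103-1* and *Mir103-2* give the same 3p sequence.
The libraries do not measure these microRNAs: the table lists *Mir107* and *Mir103-1* at 0 counts in all 6 libraries, and *Mir103-2* had 0, 0 and 2 counts in WT and 1, 0 and 2 in *Sirt6* KO. The counts below are those of the host genes.

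*Pank1* (NCBI gene 75735, chr19:34806935-34883423) has 2 transcripts listed in the table, which start at different sites. The bases before each start are shown because the deposited values rest on a length close to that of the long transcript, as given after the sequences. The first stretch is the 250 bases before the start of the long transcript at base 34879455 (chr19:34879456-34879705, minus strand), and capitals mark the letters TATAAA on either strand. The second is the 250 bases before the start of the short transcript at base 34877917 (chr19:34877918-34878167, minus strand), and capitals mark CCAAT on either strand. Both are RefSeq promoter entries on GRCm38.p6, written 5′ to 3′ in the direction of the gene:
long: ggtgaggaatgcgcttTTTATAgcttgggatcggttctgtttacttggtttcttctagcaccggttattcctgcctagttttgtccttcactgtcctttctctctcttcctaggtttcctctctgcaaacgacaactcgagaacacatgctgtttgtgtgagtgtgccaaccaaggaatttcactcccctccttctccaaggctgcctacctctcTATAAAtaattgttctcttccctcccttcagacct
short: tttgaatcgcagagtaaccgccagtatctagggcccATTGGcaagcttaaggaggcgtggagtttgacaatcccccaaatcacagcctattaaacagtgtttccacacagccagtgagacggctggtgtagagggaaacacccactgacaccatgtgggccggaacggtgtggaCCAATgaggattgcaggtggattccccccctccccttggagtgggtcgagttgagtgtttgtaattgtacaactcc
The starts lie 1538 bases apart. In the long stretch, TATAAA begins 35 bases before the start, and 12.4% of all 32851 RefSeq promoter entries hold these letters in the same window on either strand. In the short stretch, CCAAT begins 76 bases before the start, and 33.8% of entries hold it. The cAMP response element TGACGTCA, the site of the CREB factor, was looked for in the 9 promoter entries of the 6 genes that have one (all but *Coasy*). Only the 250 bases before each start were searched, for this and the sites below. The element was in 0 of the 9, beside 1.55% of all entries. The NR4A receptor site AAAGGTCA was likewise in 0 of 9, beside 1.34% of all entries. The element's half-site TGACG was in 1, that of *Ppcdc*, beside 17.8% of all entries, and the half-site is contained in the full element.

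The length behind each deposited value can be read from the count divided by the FPKM, set to bases on 5411 genes with a single transcript. For *Pank1* it lay between 7372 and 7440 bases over the 6 libraries, against 7414 bases for the long transcript and 2760 for the short one in GENCODE. The deposited *Pank1* values of both groups therefore rest on a length close to that of the long transcript. The implied length varied by 0.92% over the libraries for *Pank1*, against a 90th percentile of 0.199% for the single-transcript genes. *Pank3*, with 1 transcript, gave 7377 to 7384 bases, and *Pank2* gave 4274 to 4276.

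Library totals lay between 44845763 and 63016899 counts on genes, and 1158 genes were called lower and 1084 called higher at a threshold of 0.05 on the adjusted p (edgeR's quasi-likelihood test, Benjamini-Hochberg over 13801 genes). The deleted gene went against the labels: *Sirt6* had 138, 105 and 165 WT counts against 457, 451 and 368 in *Sirt6* KO (log2 fold change 1.48, SE 0.17, adjusted p = 0.0113), so groups are named by their labels only and every direction below rests on them. The table does not resolve the deleted exons. The libraries also differed in slow-fiber genes (7 of 7 markers measured): their summed level was 3570, 2940 and 132 normalized CPM, counts scaled to a common library size, in WT and 359, 2100 and 500 in *Sirt6* KO. WT 1, WT 2 and *Sirt6* KO 2 were therefore rich in them and the other 3 libraries poor. The fast-fiber markers, 7 of 7 measured, summed to 110000, 116000 and 188000 CPM in WT and 183000, 169000 and 196000 in *Sirt6* KO. None of the 6 libraries lacked them, and WT 1 and WT 2 were the lowest. In whole muscle, fewer cells of a type and less RNA per cell cannot be told apart. Which of these library differences takes part in the results below was not tested, except where a value is given.

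Compared per length, in the deposited TPM values, which have a fixed sum in each library, *Pank4* led the 7 genes in both groups and *Pank1* stood second in WT and last in the *Sirt6* KO libraries. Median TPM in WT ran from *Pank4* (46.9) over *Pank1* (21.4), *Pank2* (14.7), *Pank3* (13.1), *Coasy* (11.3) and *Ppcs* (7.23) to *Ppcdc* (4.84). In the *Sirt6* KO libraries it ran from *Pank4* (40.1) over *Pank2* (10.7), *Ppcs* (9.54), *Pank3* (7.35), *Ppcdc* (6.21) and *Coasy* (5.11) to *Pank1* (3.41). Neighbours whose ranges overlapped in WT, and which are thus not apart by their spread over 3 libraries, were *Pank4* and *Pank1*, *Pank1* and *Pank2*, and *Pank3* and *Coasy*. In the *Sirt6* KO libraries these were *Pank3* and *Ppcdc*, *Ppcdc* and *Coasy*, and *Coasy* and *Pank1*.

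**Figure D1:**
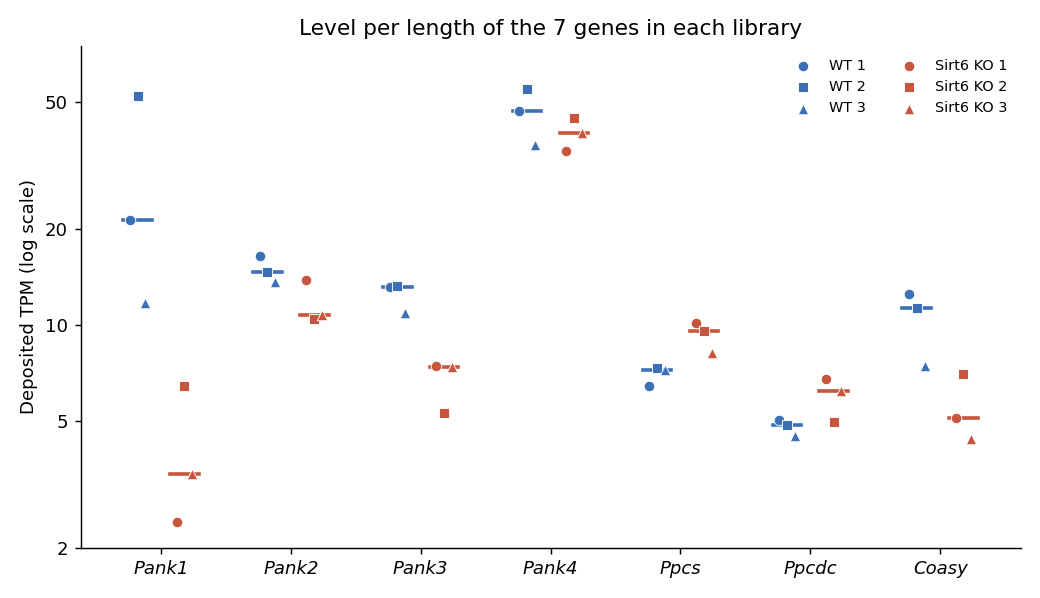
Deposited TPM (log axis) of the 7 genes in each library: WT in blue, *Sirt6* KO in red, marker shape for the replicate number, bar for the group median. *Pank1* has the widest spread, from 2.40 to 52.4 TPM, and its 3 *Sirt6* KO libraries all sit below the 3 WT libraries, whereas the *Pank4* groups overlap.

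*Pank1*, the gene of a kinase known from liver and heart, had 3284, 8075 and 2550 counts in WT and 497, 1437 and 702 in the *Sirt6* KO libraries. In normalized CPM these were 65.8, 171 and 44.5 against 8.49, 23.7 and 12.7. The groups did not overlap, WT 2 stood far above the other WT libraries, and the lowest WT library had 44.5 CPM against 23.7 in the highest *Sirt6* KO library. The mean was 93.9 ± 67.9 CPM (SD, n = 3) in WT and 15.0 ± 7.85 CPM (SD, n = 3) in *Sirt6* KO. The fitted log2 fold change was -2.65 (SE 0.58), a level 6.26-fold higher in WT. Of the 13801 genes tested, 57 had a more negative log2 fold change, a place that is no result, as *Pank1* was selected for its fall. The size depended on WT 2: without that library the log2 fold change was -1.88, or 3.68-fold. On the log2(FPKM + 1) scale of limma it was -1.97, a scale that understates the change of low genes.

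Within the groups, *Pank1* was higher in the libraries rich in slow-fiber genes. Among the 3 rich libraries it stood at 65.8 and 171 CPM in WT against 23.7 in *Sirt6* KO, and among the 3 poor ones at 44.5 CPM in WT against 8.49 and 12.7 in *Sirt6* KO. *Pank1* was selected for its fall, so that each WT value lies above each *Sirt6* KO value is no independent result. With the log2 slow-fiber sum as a covariate, a fit added after the data were seen, the log2 fold change of *Pank1* was -2.42 (SE 0.38), again a description. What part the slow-fiber difference has in the level of *Pank1* was not tested.

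**Figure D2:**
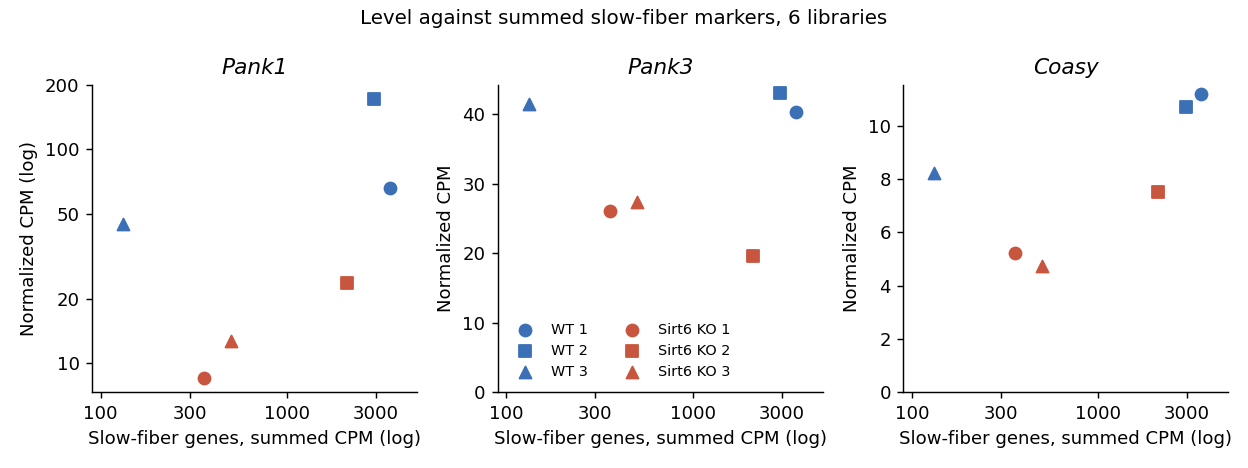
Normalized CPM of *Pank1* (log axis), *Pank3* and *Coasy* against the summed CPM of the 7 slow-fiber markers (log axis), 1 point per library, WT in blue and *Sirt6* KO in red. In each panel the *Sirt6* KO points lie below the WT points, which for *Pank1* is no result, as it was selected for its fall. Libraries poor in slow-fiber genes are on the left and rich ones on the right.

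Of the 6 other genes, 2 fell and 0 rose by edgeR, beside 8.39% of all genes tested that were called lower and 7.85% called higher. At an unadjusted p under 0.05, 2 were lower, beside 18.1% of all genes tested, and 2 higher, beside 17.2%. DESeq2 and limma on log2(FPKM + 1) each also called 2 lower and 0 higher. Over all genes DESeq2 called 1737 lower and 1671 higher, and limma 1161 and 1431. DESeq2 and limma each tested their own set of genes, so these totals are not shares of the 13801. The median log2 fold change of the 6 was -0.17, beside -0.021 over all genes tested. By range alone, 2 of the 6 were lower with no overlap between the groups, beside 19.6% of all genes tested, and 2 were higher, beside 20.3%.

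*Pank3* (NCBI gene 211347, chr11:35769495-35791285), which encodes a cytosolic kinase, fell. It had 2010, 2029 and 2377 counts in WT and 1530, 1186 and 1504 in the *Sirt6* KO libraries. In CPM these were 40.3, 43.0 and 41.5 against 26.1, 19.6 and 27.3, so the WT libraries lay close together and all above the highest *Sirt6* KO library. The log2 fold change was -0.77 (SE 0.14, adjusted p = 0.0183), or 1.71-fold lower. *Pank3* was lowest in *Sirt6* KO 2, and with the slow-fiber covariate the log2 fold change was -0.80 (adjusted p = 0.00792). Its transcript has a GC content of 39.6%, below the median of 49.8% over the genes tested, and across those genes log2 fold change and GC content had a Spearman's rho of 0.33. After a correction for GC content the log2 fold change of *Pank3* was -0.44 (adjusted p = 0.0926), so the call was lost.

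*Pank2* (NCBI gene 74450, chr2:131262008-131299188) is the paralog whose human form is mutated in a neurodegeneration with iron deposits. It had 29.1, 27.8 and 30.1 CPM in WT and 28.1, 22.3 and 23.0 in the *Sirt6* KO libraries, and the groups overlapped through *Sirt6* KO 1. The log2 fold change of -0.25 (SE 0.12) did not pass the test (adjusted p = 0.190), and its 95% interval was -0.53 to 0.037. Its 3′ end overlaps the span of *Rnf24*, which had between 47 and 119 counts in the 6 libraries against 1265 to 1724 for *Pank2*.

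*Pank4* (NCBI gene 269614, chr4:154964123-154980940), the paralog without kinase activity, had 50.1, 62.9 and 48.9 CPM in WT and 42.9, 57.4 and 51.9 in *Sirt6* KO. The groups overlapped, and in both the second replicate was the highest library. The log2 fold change of -0.088 (SE 0.15) did not pass the test (adjusted p = 0.708), with a 95% interval of -0.44 to 0.26. The sign was positive, 0.036 at most, without WT 2 or without *Sirt6* KO 1.

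**Figure D3:**
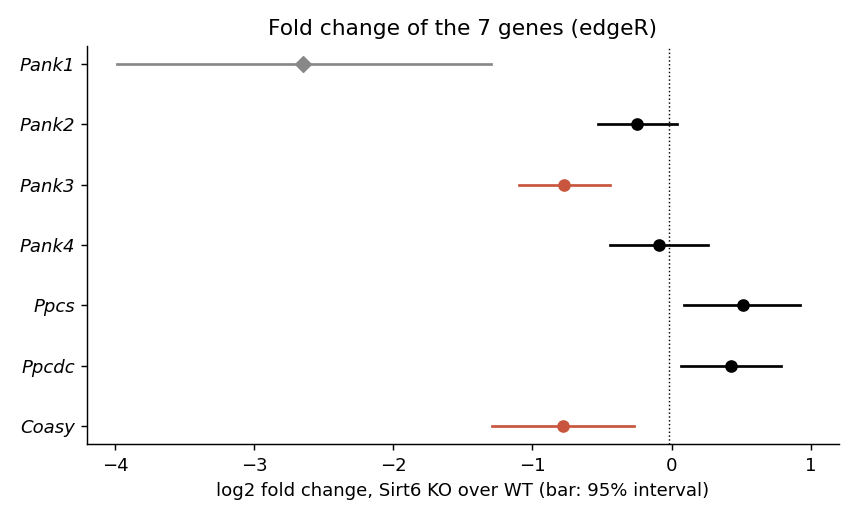
Log2 fold change of the 7 genes, *Sirt6* KO over WT, with the 95% interval as a bar. Red points passed an adjusted p of 0.05 and black points did not. The grey diamond is *Pank1*, which was selected on this comparison and is not tested, so its bar is no test either. The dotted line is the median of all genes tested at -0.021. *Pank1* lies at -2.65 and the other 6 genes between -0.78 and 0.51.

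By TPM, the make-up of the 3 active kinases differed between the groups in the direction for which *Pank1* was selected. *Pank1* took 42.0%, 65.3% and 32.3% of the summed *Pank1*, *Pank2* and *Pank3* level in WT and 10.1%, 29.0% and 15.9% in the *Sirt6* KO libraries. *Pank2* took 32.2%, 18.3% and 37.7% in WT and 58.4%, 47.0% and 49.8% in *Sirt6* KO, so it led in all 3 *Sirt6* KO libraries. With *Pank4* included, the share of *Pank1* was 25.5 ± 11.8% (SD, n = 3) in WT and 6.42 ± 2.87% (SD, n = 3) in *Sirt6* KO. The summed TPM of the 3 kinases was 50.9, 80.3 and 36.1 in WT and 23.7, 22.1 and 21.4 in *Sirt6* KO, a range that was wide in WT and narrow in *Sirt6* KO. Without *Pank1*, the sum of *Pank2* and *Pank3* was 27.3 ± 2.57 TPM in WT and 18.3 ± 2.81 TPM in *Sirt6* KO. These shares carry no test for that reason.

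**Figure D4:**
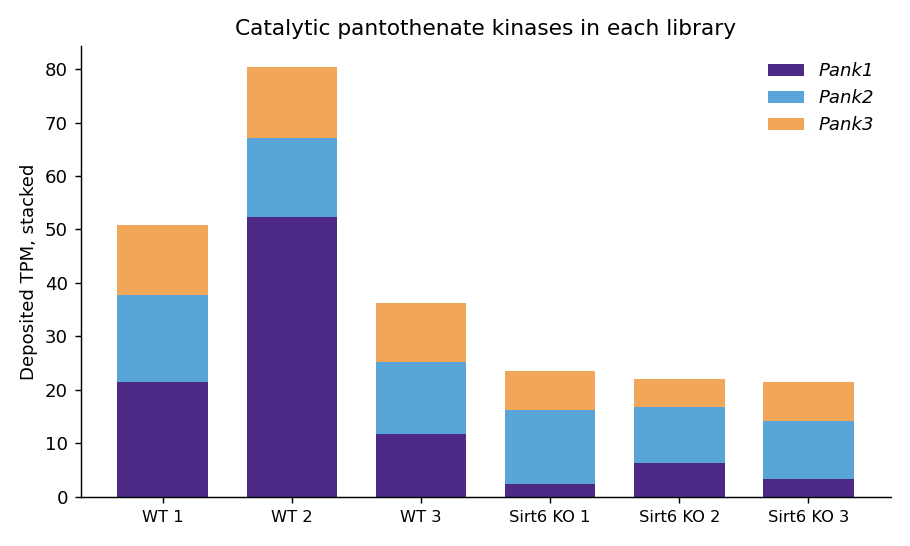
Deposited TPM of *Pank1*, *Pank2* and *Pank3* stacked in each library, from 0. The stack reaches 36.1 to 80.3 TPM in WT, where *Pank1* differs most between libraries, and 21.4 to 23.7 TPM in the *Sirt6* KO libraries, where *Pank2* is the largest part.

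Of the 3 later enzymes only *Coasy* passed the test, and differences between the 3 were not tested. *Coasy* (NCBI gene 71743, chr11:101082565-101086619), which completes CoA, fell: it had 557, 504 and 471 counts in WT and 306, 456 and 261 in *Sirt6* KO. In CPM these were 11.2, 10.7 and 8.22 against 5.23, 7.52 and 4.74, and the nearest libraries of the groups, WT 3 and *Sirt6* KO 2, differed little. The log2 fold change was -0.78 (SE 0.22, adjusted p = 0.0497), just under the threshold. With no filter on low counts it passed no longer (adjusted p = 0.0624), and with the GC correction it was -1.01 (adjusted p = 0.0404). In both groups it was highest in the libraries rich in slow-fiber genes, and with the slow-fiber covariate the log2 fold change was -0.71 (adjusted p = 0.0154).

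*Ppcs* (NCBI gene 106564, chr4:119418527-119422440), the second step, had 193, 220 and 310 counts in WT and 407, 418 and 328 in *Sirt6* KO. In CPM these were 3.87, 4.67 and 5.41 against 6.96, 6.90 and 5.96, so the groups did not overlap. The log2 fold change was 0.51 (SE 0.18, adjusted p = 0.0910) and did not pass the test. Without WT 3, the highest WT library, it was 0.63 (adjusted p = 0.0292), and over all alternatives the adjusted p ran from 0.0292 to 0.265. The fit without WT 3 called more genes over the whole table too, 2363 higher against 1084 with all 6 libraries.

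*Ppcdc* (NCBI gene 66812, chr9:57385095-57440157), the third step, had 5.79, 5.92 and 6.40 CPM in WT and 8.92, 6.86 and 8.64 in *Sirt6* KO. The groups did not overlap on this scale, but they did in TPM, where WT 1 had 5.03 and *Sirt6* KO 2 had 4.96. The log2 fold change of 0.43 (SE 0.15, adjusted p = 0.0956) did not pass the test. The non-coding RNA gene *4930430J02Rik*, which lies within its span, had 0 counts in all 6 libraries.

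Leaving out 1 library changed the calls of both *Pank3* and *Coasy*. *Pank3* and *Coasy* were called without WT 3 or without *Sirt6* KO 2, and neither was called without WT 1, WT 2, *Sirt6* KO 1 or *Sirt6* KO 3. The fold changes moved little: the log2 fold change of *Pank3* lay between -0.86 and -0.63, and that of *Coasy* between -0.99 and -0.65. Over all genes, 2219 were called lower and 2363 higher without WT 3, and 442 and 431 without *Sirt6* KO 2. The totals were 259 and 181 without WT 1, and 153 and 96 without WT 2. They were 2 and 6 without *Sirt6* KO 1, and 5 and 8 without *Sirt6* KO 3. Among the fits with 1 library left out, *Pank3* and *Coasy* thus kept their calls in those that called the most genes.

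CoA is used beyond its synthesis, and 43 genes of its supply, transport, ligation to acids and breakdown were described by role. Of these, 36 were tested, 2 fell, beside 8.39% of all genes tested, and 4 rose, beside 7.85%, so the counts lie near the shares over all genes. The counts of the shorter lists below that edgeR called at the adjusted p are to be read against the same shares. Their median log2 fold change was -0.14, beside -0.021 over all genes tested. The genes named below as changed were picked as called ones without overlap between the groups, so their lack of overlap is no result. DESeq2 called 4 lower and 6 higher, beside 1737 lower and 1671 higher over all genes. After the GC correction 0 were lower and 2 higher, beside 485 and 471 over all genes. At an unadjusted p under 0.05 in edgeR, 6 were lower, beside 18.1% of all genes tested, and 6 higher, beside 17.2%. None of these genes was chosen independently of earlier results of these data.

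**Figure D5:**
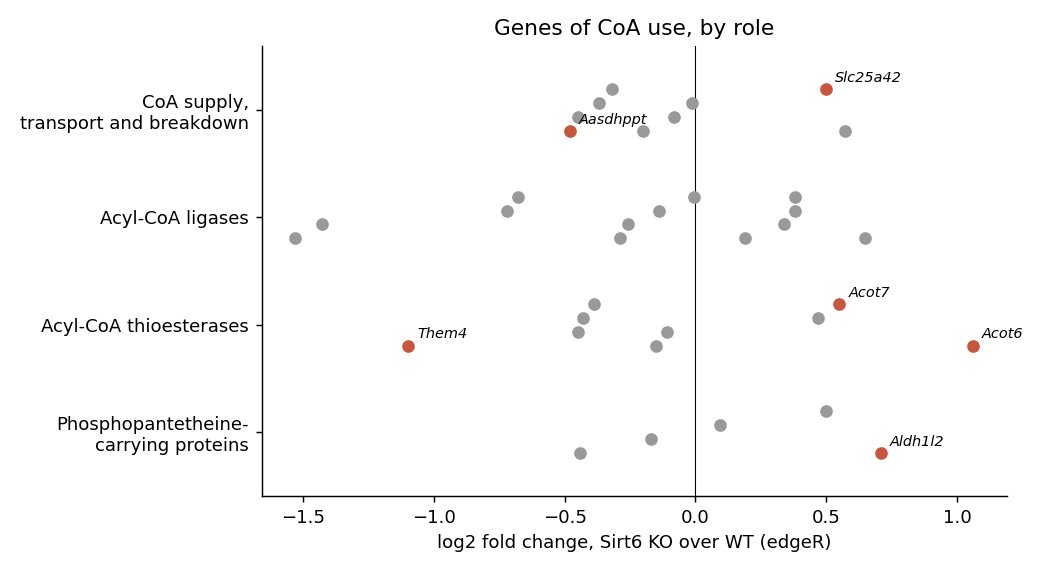
Log2 fold change, *Sirt6* KO over WT, of the 36 tested genes of CoA use, 1 point per gene in rows by role. Named red points passed an adjusted p of 0.05 and grey points did not; the red points lie on both sides of 0, from -1.10 for *Them4* to 1.06 for *Acot6*.

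Among the 9 tested genes of CoA supply, transport and breakdown, 1 fell and 1 rose. *Slc25a42*, the carrier that brings CoA into mitochondria, rose from 45.0, 50.2 and 40.5 CPM in WT to 69.5, 56.9 and 65.7 in *Sirt6* KO (log2 fold change 0.50, SE 0.13, adjusted p = 0.0381). *Aasdhppt*, which moves the phosphopantetheine arm of CoA onto carrier proteins, fell from 23.3, 25.1 and 26.3 CPM to 17.0, 17.3 and 19.1, with a log2 fold change of -0.48 (SE 0.11, adjusted p = 0.0271). With the GC correction both calls were lost: the log2 fold change was 0.29 for *Slc25a42* (adjusted p = 0.180) and -0.092 for *Aasdhppt* (adjusted p = 0.592), whose GC content was low at 37.4%. With the replicate number as a block *Slc25a42* also lost its call (adjusted p = 0.0672). With 1 library left out each of these genes was called in 1 of 6 fits, the one without WT 3. That fit also called the most genes over the whole table, 2219 lower and 2363 higher. Named after their values were seen, the CoA hydrolases *Nudt7*, *Nudt8* and *Nudt19* had log2 fold changes of -0.37, -0.45 and -0.20, and none of these passed the test.

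Among the 13 tested acyl-CoA ligases, which join CoA to fatty acids or acetate, edgeR called 0. At an unadjusted p under 0.05, 2 were lower, beside 18.1% of all genes tested, and 1 higher, beside 17.2%. DESeq2, which called 1737 genes lower and 1671 higher in all, called 2 ligases lower and 1 higher. The values lay between -1.53 and 0.65. *Acsl1*, the main long-chain ligase of muscle, had a log2 fold change of -0.26 (SE 0.24, adjusted p = 0.461), and the mitochondrial acetate ligase *Acss1* had -1.43 (SE 0.43, adjusted p = 0.0609). These 2 genes were named after their values were seen.

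Among the 9 tested acyl-CoA thioesterases, which release free CoA, 1 fell and 2 rose. *Them4* fell from 12.9, 13.3 and 9.56 CPM in WT to 4.22, 7.42 and 4.98 in *Sirt6* KO (log2 fold change -1.10, SE 0.24, adjusted p = 0.0272). *Acot6* rose from 1.18, 1.32 and 1.40 CPM to 2.82, 2.80 and 2.49 (log2 fold change 1.06, SE 0.20, adjusted p = 0.0200), and *Acot7* rose from 15.0, 14.7 and 13.8 CPM to 18.5, 22.8 and 22.4 (log2 fold change 0.55, SE 0.12, adjusted p = 0.0272). With the GC correction *Acot7* (0.34, adjusted p = 0.112) and *Them4* (-0.89, adjusted p = 0.0631) lost their calls. With 1 library left out, *Acot6* and *Acot7* were called only without WT 3, and *Them4* only without WT 3 or *Sirt6* KO 2. *Acot6* is one of a cluster of closely related genes, so counting could divide reads between it and its copies. The other 5 thioesterases of the list, among them *Acot3*, *Acot4* and *Acot5* of that cluster, had too few counts to be tested. *Acot1* and *Acot2*, named after their values were seen, were tested and not called, with log2 fold changes of -0.39 and -0.15. *Acot1* had 144 to 407 counts and *Acot2* 973 to 2873, against 59 to 170 for *Acot6*. Whether reads were divided among these genes was not tested.

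Of the 5 proteins that carry a phosphopantetheine arm, 1 rose: *Aldh1l2*, the mitochondrial 10-formyltetrahydrofolate dehydrogenase, went from 9.78, 11.2 and 10.1 CPM to 19.3, 15.3 and 16.0 (log2 fold change 0.71, SE 0.13, adjusted p = 0.0189). With 1 library left out it was called only without WT 3 or *Sirt6* KO 2. Of the others, named after their values were seen, *Ndufab1*, the mitochondrial acyl carrier protein, had a log2 fold change of -0.44 (SE 0.19, adjusted p = 0.145), and *Fasn*, fatty acid synthase, had 0.094 (SE 0.37, adjusted p = 0.879).

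The levels of 4 regulators of fuel use are given once, because *Ppara* and *Trp53* are known to act on *Pank1* elsewhere and *Ppargc1a* and *Ppard* act with *Ppara* or beside it. *Ppargc1a* encodes a coactivator of mitochondrial genes, and had 764, 1700 and 515 CPM in WT and 45.6, 170 and 92.2 in *Sirt6* KO (log2 fold change -3.28, SE 0.61, adjusted p = 0.0186). *Ppara*, the receptor of fatty acids that raises *Pank1* in liver, had 112, 171 and 23.7 CPM in WT and 6.89, 32.9 and 15.1 in *Sirt6* KO; the groups overlapped, and the log2 fold change of -2.48 (SE 0.78) did not pass the test (adjusted p = 0.0680). *Ppard*, the receptor prominent in muscle, fell, with a log2 fold change of -0.61 (SE 0.12, adjusted p = 0.0225). *Trp53*, whose product p53 raises *PANK1* in cultured cells, rose, with a log2 fold change of 0.83 (SE 0.18, adjusted p = 0.0257). Whether any of these changes takes part in that of *Pank1* was not tested.

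The genes whose level followed that of *Pank1* most closely over the 6 libraries, by Pearson's r of log2 CPM among 11624 genes with a mean of at least 1 CPM, were *Uqcrb* (r = 0.997), *Dld* (0.996), *Paip2b* (0.996), *Rbm14* (0.996) and *Slc25a33* (0.995). *Uqcrb* is a subunit of respiratory complex III and *Dld* the dihydrolipoamide dehydrogenase of the pyruvate and oxoglutarate dehydrogenase complexes. The r over 6 libraries is a description: the libraries share the group difference, the composition of the muscle and their depth, and 220 of the genes compared ranked the libraries in exactly the order of *Pank1* (Spearman's rho of 1). When only deviations from the group means were compared, *Uqcrb* was the only one of the 5 that remained among the first 5 places, with r = 0.997. Among the genes of the pathway, r with *Pank1* was 0.919 for *Coasy*, 0.738 for *Pank3*, 0.679 for *Pank4*, 0.417 for *Pank2*, -0.777 for *Ppcs* and -0.922 for *Ppcdc*. Over deviations from the group means these were 0.689, -0.403, 0.956, -0.728, -0.135 and -0.695, so *Pank3* and *Pank2* changed sign. Of these pathway genes *Pank4* had the highest r within the groups, but in place 156 among the 11624 genes compared.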

How the data were processed

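RNA of GAS muscle from 3 WT and 3 *Sirt6* KO animals was sequenced, 1 library per animal. The counts deposited by the authors are whole reads per gene on mm10, without normalization between libraries; the FPKM and TPM values deposited by the authors are scaled per length and library. The submitters' processing notes list HISAT2 2.1.0, Bowtie2 2.3.4.1 and StringTie 2.1.3b, whereas the reporting summary names STAR. The labels and the methods name different library kits, and whether counting used the strand is not given in the sources used here.

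The test on counts was that of edgeR 4.0.16 in R 4.3.3 (filterByExpr, TMM, quasi-likelihood test, group as the one factor), with adjustment over 13801 genes at 0.05. Levels are TMM-normalized CPM, where 1 count is worth 0.0165 to 0.0212 CPM, and TPM where genes are compared. The SE was derived from the F statistic. P-values set the group difference against the spread between these animals, which the fit estimates partly from other genes. The fit was tested on simulated data. Alternatives were DESeq2 1.42.0, its size factors, other filters, limma 3.58.1 on FPKM (quantile-normalized log2 with a pseudocount of 1 or of 0.1), a GC correction (lowess span 0.3, 13715 genes), the replicate number as a block, and each library left out; the slow-fiber covariate was added after the data were seen.

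The members and lists were chosen with earlier results of these data known. Named were the 7 genes, *Sirt6*, of each CoA list the called genes without overlap (at most 3 a direction), the 5 genes with the highest r to *Pank1*, the intronic microRNA genes and 4 regulators; others are marked. Marker lists, as summed CPM in WT and in *Sirt6* KO, ran from 124 to 257 and 162 to 293 for 6 adipocyte genes, 129 to 239 and 146 to 151 for 4 endothelial, 17.5 to 33.2 and 22.3 to 27.8 for 4 macrophage, 458 to 836 and 536 to 562 for 4 fibroblast, 12.5 to 32.0 and 10.5 to 21.1 for 4 Schwann cell, and 46.6 to 297 and 80.2 to 181 for 5 erythroid genes. *Pax7* of satellite cells had 0.421 to 0.541 and 1.04 to 1.33, and *Ucp1* of brown adipocytes 0 in every library but *Sirt6* KO 1 (0.103). Coordinates are from RefSeq (GRCm38.p6), matched by gene identifier.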

Additional observations from a re-analysis of the deposited data

How the results depend on the processing

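The direction of *Pank2*, *Pank3*, *Ppcs*, *Ppcdc* and *Coasy* was the same in all 16 alternatives, and that of *Pank4*, which never passed the test, in 14; that of *Pank1* is fixed by its selection. Genes called lower numbered 1158, and 1737 by DESeq2, 485 with the GC correction, 320 with the replicate block and the GC correction together, 1997 with the slow-fiber covariate, and 2 to 2219 with 1 library left out. Genes called higher numbered 1084, and 1671 by DESeq2, 471 with the GC correction, 244 with block and GC correction, 1968 with the covariate, and 6 to 2363 with 1 library left out. *Sirt6* kept its direction with 1.37 to 1.55 (log2) when 1 library was left out, and missed the threshold without *Sirt6* KO 1 or 3. *Pank3* lost its call at -0.44 with the GC correction and at -0.45 with block and GC correction, and lay between -0.86 and -0.63 with 1 library left out. *Coasy* lost its call at -0.77 with no filter on low counts, and lay between -0.99 and -0.65 with 1 library left out. *Ppcs* lay between 0.40 and 0.63, and passed without WT 3. Of the 6 genes other than *Pank1*, the count lower was 1 with no filter, with the GC correction and with block and GC correction, and 0 to 2 with 1 library left out; the count higher was 0 to 1. Of the CoA-use genes, the count lower was 4 by DESeq2, 0 with the GC correction, 6 with the covariate and 0 to 8 with 1 library left out; the count higher was 2 with the GC correction, 0 with block and GC correction, 7 with the covariate and 0 to 6 with 1 library left out. By deviations from the group means, 1 of the 5 genes most like *Pank1* remained among the first 5. On CPM, which is not per length, the *Pank1* share of the 4 kinase genes was 39.6% in WT and 12.8% in *Sirt6* KO. The causes of these shifts were not tested.

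The labels do not say whether the replicate numbers pair the animals, and correlations over 3 libraries a group cannot settle it. Deviations of same-numbered libraries correlated at -0.0906, 0.218 and 0.134, and those of differently numbered libraries at -0.301 to 0.186. With the replicate number as a block, 1018 genes were lower and 904 higher, and *Pank3* (-0.79, adjusted p = 0.0325) and *Coasy* (-0.80, adjusted p = 0.0387) were called as without it. With 3 libraries a group, calls near the threshold depend on single animals.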
